A study of Mus musculus with 34 samples.

Results

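Peroxisome proliferator-activated receptor alpha, encoded by Ppara, and 8 genes known as its targets were followed in the hearts of mice after instillation of carbon black into the airways. The target genes were Acot1, Acot2, Cpt1b, Plin5, Pdk4, Ucp3, Angptl4 and Acaa2. They were found on the arrays through the RefSeq accession that the scanner files give for each probe. The 9 genes had 10 probes of the 41174 on the array, and all 9 were among the 19793 genes tested. Hearts came from female C57BL/6 mice bought at 5 to 6 weeks of age. The exposed animals were given a single dose of 162 µg of Printex 90 carbon black nanoparticles in 40 µl, pushed in with 150 µl of air. Control mice received the vehicle, 0.9% saline with 10% by volume of cell-free lung lavage fluid of mice of the same strain. The 6 groups were carbon black day 1 (n = 6), vehicle day 1 (n = 6), carbon black day 3 (n = 5), vehicle day 3 (n = 6), carbon black day 28 (n = 5) and vehicle day 28 (n = 6), where the day is the time after instillation. The tissue was a random section of heart with both ventricles, and each of the 34 arrays held the RNA of 1 animal. The design thus asks whether particles deposited in the lung are followed by a change in heart transcripts.

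PPAR-alpha is a nuclear receptor that is bound and activated by fatty acids. It pairs with a retinoid X receptor and binds DNA at repeats of a short sequence. In heart muscle, which takes most of its energy from fatty acids, it is known to keep up the genes that import, activate, store and oxidise them, and its targets are known to be induced by fasting. Several of the same genes are also used by adipocytes, where the related receptor PPAR-gamma controls them.

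Values are log2 ratios of heart RNA, labelled with Cy5, over a commercial mixture of mouse RNA, labelled with Cy3, on the same array. A value above 0 means more transcript in heart than in the mixture, and a difference of 1 between arrays is a 2-fold difference. Levels of different genes are not set against each other, because each probe has its own response. Between 42.8% and 66.6% of spots per array were well above background (median 54.8%), and no sample spot was saturated. The number of arrays limits the precision of what follows. The limma p-values set a fitted difference against the spread between these animals, and those of correlations come from shuffling arrays within groups. All 11 cardiomyocyte markers, among them Myh6, Tnni3 and Pln, were well above background on 34 of 34 arrays. The sections differed in other tissue: 5 arrays had a low summed level of white and general adipocyte markers and 5 of atrial markers, with 4 arrays in both sets, and 9 were high in liver markers. In vehicle hearts these 9 were day 1 replicates 1, 3, 4 and 6 and day 3 replicates 4, 5 and 6. The rest were carbon black day 3 replicates 1 and 3. In RNA of a whole section, fewer cells of a type and less RNA per cell cannot be told apart. All 9 genes were well above background on 34 of 34 arrays, except Ucp3, which was on 33. These flags are those of the heart (Cy5) channel, and probes were not filtered on the reference channel. The reference signal of Ucp3 lay between 24 and 78.5, against 101 to 871 in the heart channel.

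None of the 9 genes passed the test between carbon black and vehicle at any day or over all days, although the fitted difference over all days was above 0 for 9 of 9. With position on the slide as a block, where every array at the fourth position is a carbon black one, it was above 0 for 7 of 9. The differences were between 0.10 for Ppara and 0.70 for Angptl4 on the log2 scale, with a median of 0.30. Over all 19793 genes the median was 0.00, and 50.4% of genes had a fitted difference above 0. With limma and Benjamini-Hochberg adjustment over all genes at a threshold of 0.05, 0 of the 9 genes were called over all days, against 386 of all genes (percent called 1.95). Of these 386 genes, 262 were higher and 124 lower in carbon black hearts. With median centring in place of loess, which moves the median of all genes to 0.19, the split was 1340 higher and 0 lower, and with the authors' deposited log2 ratios it was 829 higher and 683 lower. At an unadjusted p under 0.05, 2 of the 9 genes were counted over all days, Acot1 and Cpt1b, where 18.3% of all genes were. At single days, fitted differences were above 0 for 7 of 9 genes at day 1 (49% of all genes), 8 of 9 at day 3 (52.9%) and 8 of 9 at day 28 (52%). Of the 9 genes 0 were called at any of these days, and 0 of all genes were called at day 1, day 3 or day 28 (percent called 0 at each). The unadjusted count was 1 of 9 genes at day 1 (7.21% of all genes), 0 of 9 at day 3 (11.1%) and 2 of 9 at day 28 (2.98%). No gene of the 9 had carbon black and vehicle arrays that did not overlap at any day, where 0.359%, 0.899% and 0.379% of all genes did at days 1, 3 and 28. The carbon black effect did not pass a test of difference between days for any of the 9 genes (limma F test, lowest unadjusted p 0.212, for Acaa2), nor for any gene tested (percent called 0). Marker genes of other processes and tissues were read beside these values. The cardiomyocyte marker score is a mean deviation from the median array on the log2 scale. At day 3 it averaged 0.03 in carbon black and -0.42 in vehicle hearts. At day 28 it averaged 0.19 in carbon black and -0.18 in vehicle hearts. At day 1, 6 of the 11 cardiomyocyte markers had fitted differences above 0, with a median of 0.02. Of the 11 cardiomyocyte markers, 10 had fitted differences above 0 over all days and 1, Tnni3, was called (0.82 ± 0.22 SE, adjusted p = 0.046). With slide, scan day or position on the slide as a fixed block, 0 of all genes were called over all days, so all 386 calls, Tnni3 included, are lost there. Of the other marker lists, 6 of 6 atrial markers (median 0.42), 8 of 9 tested white and general adipocyte markers (0.33), 5 of 7 brown adipocyte markers (0.30), 6 of 8 skeletal muscle markers (0.06), 10 of 10 tested glucocorticoid-responsive genes (0.28) and 2 of 7 tested liver markers (-0.76) were above 0 over all days, with none called. At day 1 the white and general adipocyte markers were the other way, with 1 of 9 above 0 and a median of -0.29. The liver markers had 1 of 7 above 0 at day 1, with a median of -1.76 and none called. The count of 9 of 9 above 0 was the same without the arrays low in adipocyte or atrial markers and without those high in liver markers. Several of the 9 genes vary together within groups, so this count does not hold 9 separate results. The 9 genes were also chosen with earlier results of these data known. The part of the marker genes in the values of the 9 genes was not tested, and leaving out arrays does not test it.

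**Figure D1:**
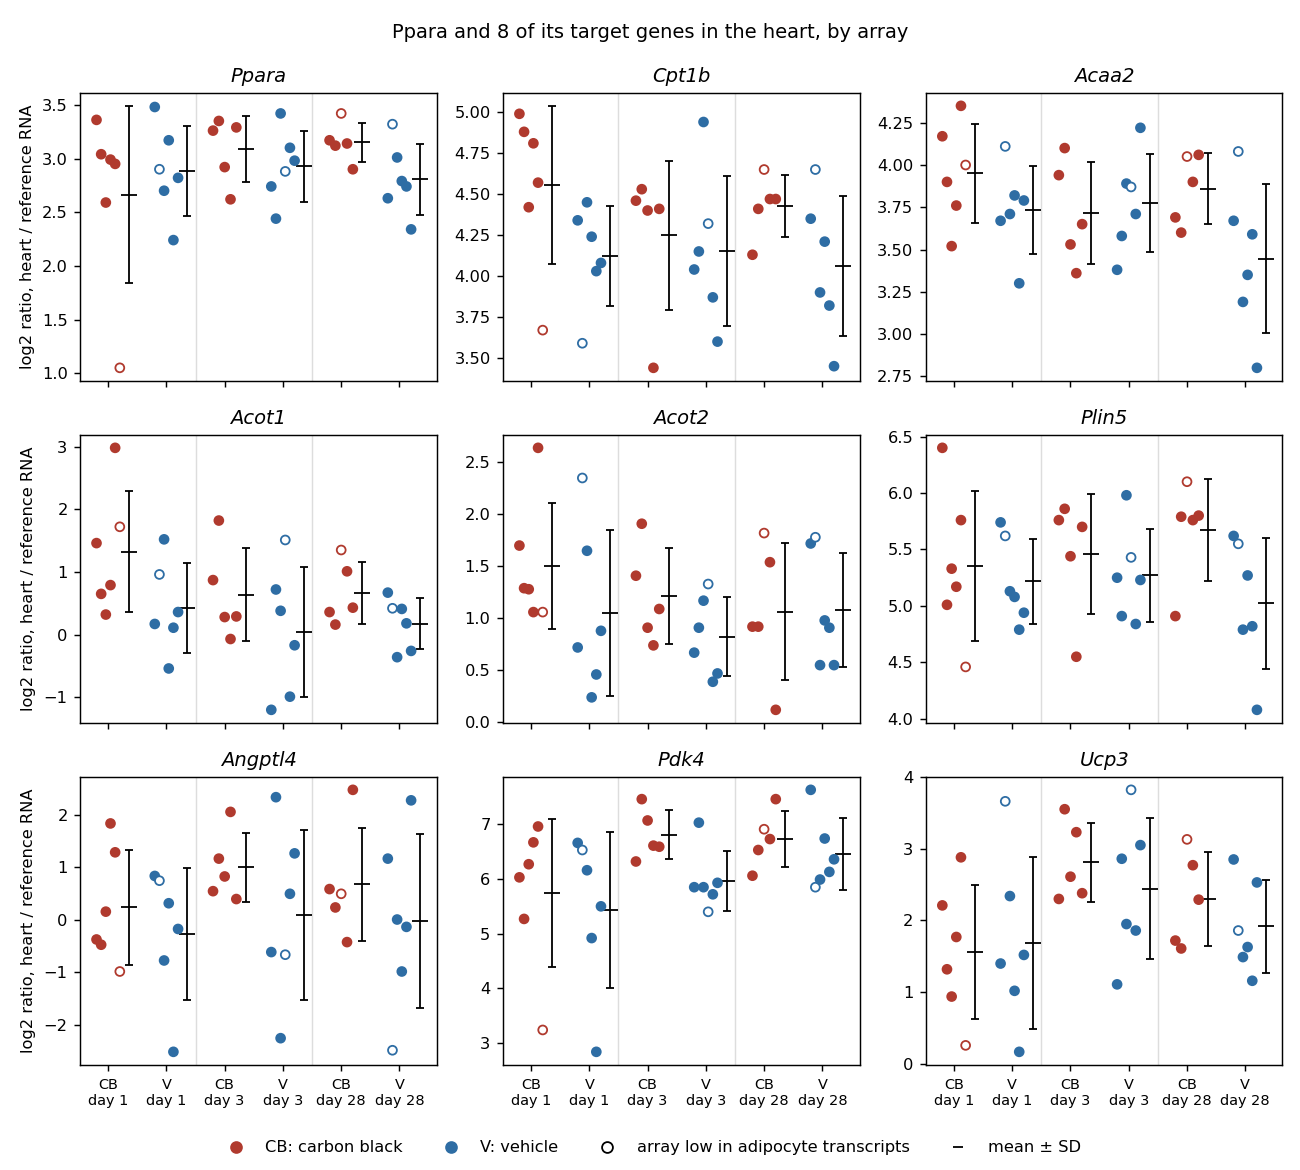
Log2 ratio of heart RNA over reference RNA on each of 34 arrays for 9 genes, by group, with replicates left to right, and mean ± SD beside them. Carbon black (CB, red) stands left of vehicle (V, blue) at each day, open circles are the 5 arrays low in adipocyte transcripts, and both treatments overlap in every panel and at every day. The vertical axes differ between genes and do not start at 0.

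Ppara encodes the receptor itself, and its fitted difference over all days was the smallest of the 9 genes, though not at any single day. Its log2 ratio averaged 2.66 ± 0.83 (SD, n = 6) in carbon black and 2.88 ± 0.42 (n = 6) in vehicle hearts at day 1. At day 3 it averaged 3.09 ± 0.31 (n = 5) in carbon black and 2.93 ± 0.33 (n = 6) in vehicle hearts, and at day 28 it averaged 3.15 ± 0.19 (n = 5) in carbon black and 2.80 ± 0.33 (n = 6) in vehicle hearts. The groups overlapped at each day. Over all days the difference was 0.10 ± 0.15 (SE, 95% interval -0.22 to 0.41, limma adjusted p = 0.807). The probe has 10 spots on each array, whose SD within an array had a median of 0.16, against a within-group SD of 0.46 between animals. Carbon black day 1 replicate 6 stood apart at 1.05, where the other 5 arrays of its group lay between 2.59 and 3.36. Without this array the day 1 difference was 0.10 instead of -0.22. The same array was also lowest of its group for Pdk4, Plin5, Cpt1b, Angptl4 and Ucp3, and it was the lowest of all 34 arrays in atrial (-4.28) and adipocyte (-3.83) marker scores. On the 10 slides that held a carbon black and a vehicle array of the same day, the Ppara difference was above 0 on 6, with a median of 0.22. On each of these slides the vehicle array was at position 1 and the carbon black array at position 4. Treatment and position therefore cannot be told apart in differences within slides.

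Cpt1b, the muscle form of carnitine palmitoyltransferase 1, controls the entry of long-chain fatty acids into mitochondria. At day 1 its log2 ratio had a lowest, median and highest value of 3.67, 4.69 and 4.99 in carbon black hearts, against 3.59, 4.16 and 4.45 in vehicle hearts. At day 3 it was 4.46, 4.53, 4.40, 3.44 and 4.41 in carbon black hearts, against 3.60, 4.10 and 4.94 (lowest, median, highest) in vehicle hearts. At day 28 it was 4.13, 4.41, 4.65, 4.47 and 4.47 in carbon black hearts, against 3.45, 4.05 and 4.65 in vehicle hearts. The carbon black arrays lay in the upper part of the range at days 1 and 28, with 5 of 6 and 5 of 5 above the vehicle mean, and the groups overlapped at every day. Over all days 14 of 16 carbon black arrays were above the vehicle mean of their day, and the difference was 0.30 ± 0.13 (95% interval 0.02 to 0.57, adjusted p = 0.228). A second probe for Cpt1b, with a lower signal, gave 0.04 ± 0.13 over all days. By day it gave -0.01 at day 1, -0.12 at day 3 and 0.27 at day 28. The probe used gave 0.43, 0.09 and 0.36 in the same order. The 2 probes of this gene thus disagree in size, and in sign at days 1 and 3. Within slides the difference for the probe used was above 0 on 7 of 10, with a median of 0.34.

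Acaa2 encodes the mitochondrial thiolase of the last step of beta-oxidation. Its group means lay between 3.72 ± 0.30 (SD) at day 3 and 3.95 ± 0.30 at day 1 in carbon black hearts, against 3.45 ± 0.44 at day 28 and 3.77 ± 0.29 at day 3 in vehicle hearts. At day 28 the difference was 0.41 ± 0.18 (SE, unadjusted p = 0.0323, adjusted p = 1), with 5 of 5 carbon black arrays above the vehicle mean. At day 3 it was -0.06 ± 0.18, and over all days 0.19 ± 0.10 (adjusted p = 0.339). Its spread was the smallest of the 9 genes, with a within-group SD of 0.31, near the median of 0.26 over all genes.

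Acot1 and Acot2 encode acyl-CoA thioesterases, the first in the cytosol and the second in mitochondria, which split fatty acyl-CoA into free fatty acid and coenzyme A. They are neighbours on chromosome 12 with no other gene of the RefSeq table between them, and they are close relatives. Cross-hybridisation between the pair was not examined, as the probe sequences were not used here. Their promoters, the 250 bases before each start on the + strand, are shown because these neighbours varied together more closely than any other pair (RefSeq, GRCm38.p6, chr12:84009252-84009501 for Acot1 and chr12:83987611-83987860 for Acot2, 5′ to 3′). No stretch is in capitals, since neither of the motifs searched was found in these windows.
Acot1: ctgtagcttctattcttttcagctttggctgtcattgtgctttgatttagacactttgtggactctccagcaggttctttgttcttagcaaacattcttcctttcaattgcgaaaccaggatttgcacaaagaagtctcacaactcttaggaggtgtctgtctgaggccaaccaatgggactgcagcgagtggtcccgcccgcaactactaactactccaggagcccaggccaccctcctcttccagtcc
Acot2: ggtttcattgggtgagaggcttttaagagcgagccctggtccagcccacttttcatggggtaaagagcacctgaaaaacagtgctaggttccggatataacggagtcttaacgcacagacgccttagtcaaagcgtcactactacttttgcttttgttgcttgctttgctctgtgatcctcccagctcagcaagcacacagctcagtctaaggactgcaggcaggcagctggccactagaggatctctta
The motifs were the hexamer AGGTCA, known as the unit that nuclear receptors bind, and a direct repeat of 2 copies of AGGNCA with 1 base between them, each on both strands, where a hexamer inside a repeat is counted too. Of all 32851 promoters of this length in the table, 14.0% held the hexamer and 0.338% the repeat.

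Acot1 had the smallest adjusted p of the 9 genes. At day 1 its log2 ratio had a lowest, median and highest value of 0.32, 1.12 and 2.98 in carbon black hearts, against -0.54, 0.27 and 1.52 in vehicle hearts. At day 3 it was 0.87, 1.82, 0.28, -0.07 and 0.29 in carbon black hearts, against -1.20, 0.10 and 1.51 in vehicle hearts. At day 28 it was 0.36, 0.16, 1.35, 1.01 and 0.43 in carbon black hearts, against -0.36, 0.30 and 0.67 in vehicle hearts. Carbon black replicate 5 at day 1 was the highest of all arrays, no carbon black array was below -0.07, and the groups overlapped at every day. The differences were 0.89 ± 0.42 at day 1, 0.60 ± 0.45 at day 3 and 0.49 ± 0.45 at day 28. They were 0.56 at day 1 without carbon black replicate 5, 0.30 at day 3 without carbon black replicate 2 and 0.32 at day 28 without carbon black replicate 3. Over all days the difference was 0.66 ± 0.25 (95% interval 0.14 to 1.17, unadjusted p = 0.0142, adjusted p = 0.148), a 1.58-fold higher mean, and 13 of 16 carbon black arrays were above the vehicle mean of their day. Within slides, however, the difference was above 0 on only 5 of 10, with values between -1.59 and 3.53 and a median of 0.26. With slide as a fixed block it was 0.56 ± 0.39 (adjusted p = 0.556). It passed the threshold with median centring (0.98, adjusted p = 0.0435) and with the adipocyte score as a covariate (0.75, adjusted p = 0.0261). Cpt1b also passed with median centring (0.66, adjusted p = 0.0419), where all genes had a median of 0.19.

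Acot2 averaged 1.5 ± 0.60 in carbon black and 1.05 ± 0.80 in vehicle hearts at day 1. It averaged 1.21 ± 0.46 in carbon black and 0.82 ± 0.38 in vehicle hearts at day 3, and 1.06 ± 0.66 in carbon black and 1.08 ± 0.55 in vehicle hearts at day 28. At day 1, 6 of 6 carbon black arrays were above the vehicle mean, yet 2 vehicle arrays, at 2.35 and 1.65, were within their range. Over all days the difference was 0.27 ± 0.19 (adjusted p = 0.489).

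Plin5 encodes a coat protein of lipid droplets that is abundant in oxidative tissue and holds droplets at mitochondria. At day 28 its log2 ratio was 4.91, 5.79, 6.10, 5.76 and 5.80 in carbon black hearts, against 4.08, 5.04 and 5.62 (lowest, median, highest) in vehicle hearts. Of the carbon black arrays 4 lay above every vehicle array, and 1 lay below the vehicle mean. This difference was 0.65 ± 0.30 (unadjusted p = 0.0368, adjusted p = 1). At day 1 the means were 5.36 ± 0.67 in carbon black and 5.22 ± 0.38 in vehicle hearts, and at day 3 they were 5.46 ± 0.53 in carbon black and 5.27 ± 0.41 in vehicle hearts. Over all days the difference was 0.33 ± 0.17 (adjusted p = 0.31), and it was 0.14 with slide as a fixed block. Within slides it was above 0 on 6 of 10.

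Angptl4 encodes a secreted inhibitor of lipoprotein lipase, the enzyme that releases fatty acids from circulating lipoproteins. It was the most variable of the 9 genes, with a within-group SD of 1.30, larger than that of 99.5% of all genes. At day 1 its log2 ratio had a lowest, median and highest value of -0.99, -0.12 and 1.83 in carbon black hearts, against -2.52, 0.07 and 0.83 in vehicle hearts. At day 3 it was 0.54, 1.16, 0.82, 2.05 and 0.39 in carbon black hearts, against -2.26, -0.06 and 2.33 in vehicle hearts. At day 28 it was 0.58, 0.23, 0.49, -0.43 and 2.47 in carbon black hearts, against -2.49, -0.07 and 2.27 in vehicle hearts. The lowest array of each day was a vehicle array, and at day 3 the highest was too. The difference over all days was 0.70 ± 0.42 (95% interval -0.16 to 1.57, adjusted p = 0.396), the largest fitted value of the 9 genes and the least certain.

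Pdk4 encodes pyruvate dehydrogenase kinase 4, which switches off glucose oxidation in mitochondria, and Ucp3 encodes a mitochondrial carrier of the uncoupling protein family. Both are known to rise in muscle on fasting. Their promoters are shown because this pair also varied together: the 250 bases before the start of Pdk4 on the − strand (chr6:5496279-5496528) and of Ucp3 on the + strand (chr7:100472741-100472990), from the same RefSeq table and build, with the hexamer AGGTCA in capitals.
Pdk4: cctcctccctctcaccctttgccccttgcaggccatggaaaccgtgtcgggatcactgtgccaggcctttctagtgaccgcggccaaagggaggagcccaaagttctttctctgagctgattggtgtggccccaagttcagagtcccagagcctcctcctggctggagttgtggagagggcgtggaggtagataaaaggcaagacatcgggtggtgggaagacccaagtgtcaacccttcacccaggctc
Ucp3: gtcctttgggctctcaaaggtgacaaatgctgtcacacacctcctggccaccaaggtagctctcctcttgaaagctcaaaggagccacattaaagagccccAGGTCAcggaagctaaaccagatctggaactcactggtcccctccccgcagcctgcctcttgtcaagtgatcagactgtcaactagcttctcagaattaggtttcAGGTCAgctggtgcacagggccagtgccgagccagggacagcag
The Ucp3 window held the hexamer at 2 positions on the strand of the gene, starting 149 and 44 bases before its start, and the Pdk4 window held none. Neither window held the repeat. A match is a description of letters and not a known binding site.

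At day 1 the Pdk4 log2 ratio had a lowest, median and highest value of 3.24, 6.15 and 6.96 in carbon black hearts, against 2.84, 5.83 and 6.66 in vehicle hearts. At day 3 it was 6.32, 7.46, 7.07, 6.61 and 6.59 in carbon black hearts, against 5.40, 5.85 and 7.03 in vehicle hearts. At day 28 it was 6.06, 6.53, 6.91, 6.73 and 7.46 in carbon black hearts, against 5.85, 6.24 and 7.63 in vehicle hearts. At day 3 every carbon black array was above 5 of the 6 vehicle arrays, and vehicle replicate 2, at 7.03, was the exception. The day 3 difference was 0.85 ± 0.54 (unadjusted p = 0.13, adjusted p = 0.572), and the difference over all days was 0.48 ± 0.31 (adjusted p = 0.434). At day 1 each treatment held 1 array far below the rest, carbon black replicate 6 at 3.24 and vehicle replicate 5 at 2.84. Without vehicle replicate 5 the day 1 difference was -0.21 instead of 0.31, and without carbon black replicate 6 it was 0.81. The glucocorticoid-responsive score, taken because Pdk4 also answers to glucocorticoids, averaged 0.30 in carbon black and -0.33 in vehicle hearts at day 1, and 0.35 in carbon black and -0.01 in vehicle hearts at day 3. At day 28, 6 of its 10 tested genes had fitted differences above 0 (median 0.22). At day 1 it was 9 of 10 (median 0.41), and at day 3 also 9 of 10 (median 0.32). The part of this score in the Pdk4 values was not tested, and the score was not correlated with any of the 9 genes past the threshold within groups.

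Ucp3 averaged 1.56 ± 0.93 in carbon black and 1.69 ± 1.20 in vehicle hearts at day 1. It averaged 2.82 ± 0.55 in carbon black and 2.44 ± 0.98 in vehicle hearts at day 3, and 2.31 ± 0.66 in carbon black and 1.92 ± 0.65 in vehicle hearts at day 28. The groups overlapped at every day, and 9 of 16 carbon black arrays were above the vehicle mean of their day. Over all days the difference was 0.21 ± 0.29 (adjusted p = 0.764).

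**Figure D2:**
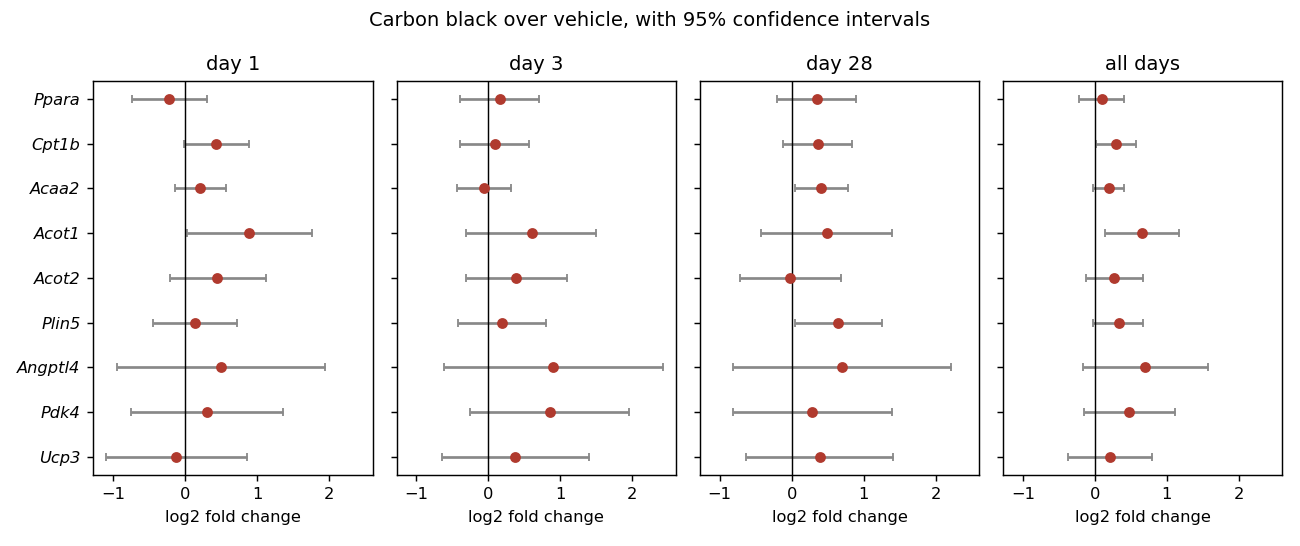
Fitted log2 fold change of carbon black over vehicle with its 95% interval for the 9 genes, at each day and over all days. The intervals are widest for Angptl4, Pdk4 and Ucp3, and over all days those of Acot1 and Cpt1b lie above 0 before adjustment over all genes.

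In vehicle hearts alone, the 9 genes were compared between days to see how they move without particles. None was called, and no gene of all tested was called between any 2 days (percent called 0 in each of 3 comparisons). None of the 9 had an unadjusted p under 0.05, where 2.04%, 1.18% and 4.45% of all genes did for day 3 against day 1, day 28 against day 1 and day 28 against day 3. Fitted differences were above 0 for 7 of 9 genes for day 3 against day 1 (47.9% of all genes), 4 of 9 for day 28 against day 1 (50.6%) and 3 of 9 for day 28 against day 3 (53.9%). For 0 of the 9 genes did the days not overlap, where 0.0354%, 0.116% and 0.0556% of all genes were so in the same order. The largest value was that of Pdk4, which averaged 6.45 ± 0.66 in vehicle hearts at day 28 and 5.43 ± 1.43 at day 1, a difference of 1.02 ± 0.52 (unadjusted p = 0.0593). It was 0.50 without vehicle day 1 replicate 5, the low array named above, 1.62 with slide as a fixed block and 1.77 without the arrays high in liver markers. For Ucp3 the day 3 minus day 1 difference was 0.76 ± 0.48, which was 1.29 with slide as a fixed block (unadjusted p = 0.0322) and 0.06 without the arrays high in liver markers. Leaving out the arrays high in liver markers drops vehicle day 1 replicates 1, 3, 4 and 6. It keeps replicate 5, the low Pdk4 array, and replicate 2, which had the highest Ucp3 of its group at 3.66. The values 1.77 and 0.06 thus rest on these arrays at day 1. For day 28 against day 1, liver markers had a median of -1.85 and 0 of 7 above 0, with Alb, albumin, at -3.59 ± 0.80. For day 3 against day 1 their median was 0.21, with 5 of 7 above 0. No liver marker was called in either comparison. Their part in the day differences of Pdk4 and Ucp3 was not tested.

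The rest of the pathway was read from 7 lists that hold 89 other genes, of which 80 were tested. These lists too were chosen with earlier results of these data known. Over all days, 2 of the 80 were called higher in carbon black hearts and 0 lower, with a median of 0.07 and 71.2% above 0. Over all genes 1.95% were called and 50.4% were above 0, so the 2 calls are near the share among all genes. The 11 tested genes of fatty acid uptake and activation had a median of 0.28, with 9 above 0 and none called. Among them were Lpl, lipoprotein lipase (0.44 ± 0.14, adjusted p = 0.0839), Slc27a1, a fatty acid transporter (0.34 ± 0.11, 0.0848), and Fabp4, a fatty acid binding protein that is also an adipocyte marker (0.34 ± 0.13, 0.155). The 19 genes of mitochondrial beta-oxidation had a median of 0.07, with 15 above 0 and none called. By day, 17 of the 19 were above 0 at day 1 (median 0.05), 6 of 19 at day 3 (median -0.08) and 19 of 19 at day 28 (median 0.32), with none called. The vehicle hearts of day 28 were themselves low in this list. Against vehicle hearts of day 1, 2 of 19 were above 0 (median -0.27), and against those of day 3 also 2 of 19 (median -0.3), with none called. Over all days Mlycd (0.56 ± 0.19, adjusted p = 0.0954) had the smallest p of this list, followed by Acadm (0.35 ± 0.18) and Eci2 (0.22 ± 0.11). Of the 11 genes of ketone bodies and other targets, 10 were above 0 and none was called, with Aldh9a1 nearest (0.46 ± 0.14, adjusted p = 0.0686). The 4 pyruvate dehydrogenase kinases and phosphatases beside Pdk4 had a median of -0.01, and Pdk1 had the smallest p among them at -0.11 ± 0.09. The 4 angiopoietin-like genes and lipase regulators beside Angptl4 had a median of -0.16, with Angptl6 at -0.23 ± 0.07 and Lmf1, a lipase maturation factor, at 0.34 ± 0.11.

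The called genes were Ephx2 and Ncoa1. Ephx2, soluble epoxide hydrolase, averaged 6.15 ± 1.03 in carbon black and 5.54 ± 1.07 in vehicle hearts at day 1, 6.38 ± 0.48 in carbon black and 5.09 ± 0.80 in vehicle hearts at day 3, and 6.41 ± 0.22 in carbon black and 5.45 ± 0.58 in vehicle hearts at day 28. Of the 16 carbon black arrays 15 were above the vehicle mean of their day, and the difference over all days was 0.95 ± 0.26 (adjusted p = 0.047). Ncoa1, a coactivator of nuclear receptors, averaged 0.80 ± 0.34 in carbon black and 0.40 ± 0.57 in vehicle hearts at day 1, 0.90 ± 0.09 in carbon black and 0.24 ± 0.48 in vehicle hearts at day 3, and 0.82 ± 0.15 in carbon black and 0.50 ± 0.19 in vehicle hearts at day 28. It differed by 0.46 ± 0.12 over all days (adjusted p = 0.0458), also with 15 of 16 arrays above the vehicle mean. For both genes the carbon black arrays were the less spread at every day. The other 13 tested genes of peroxisomal and omega oxidation in the list were not called, and the list's median was -0.04, with Decr2 at -0.24 ± 0.07 (adjusted p = 0.0508). Ncoa1 stayed called in 11 and Ephx2 in 9 of the 34 fits that left out 1 array. With slide as a fixed block the adjusted p was 0.126 for Ephx2 and 0.125 for Ncoa1, and with scan day as a fixed block it was 0.0871 for Ephx2 and 0.0868 for Ncoa1.

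**Figure D3:**
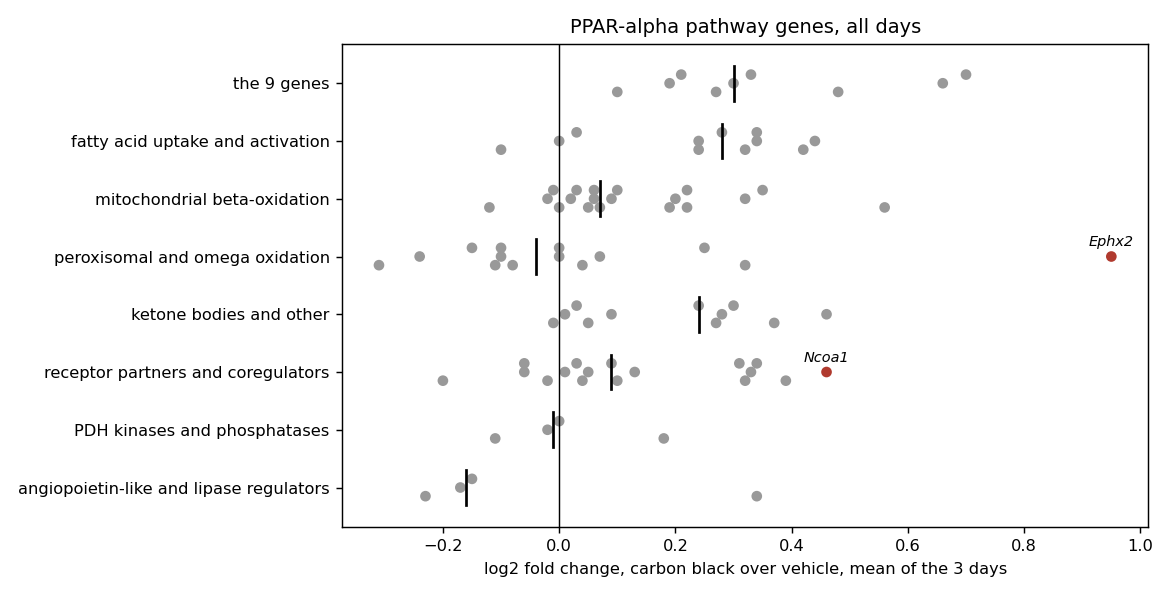
Fitted log2 fold change of carbon black over vehicle over all days, 1 point per gene, for the 9 genes and 7 lists of other PPAR-alpha pathway genes, with the median of each as a black bar. Red points are called genes, and both lie above 0. Points of a list are offset vertically for legibility.

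The 9 genes varied widely between animals of one group. Their within-group SD lay between 0.31 and 1.30, against a median of 0.26 over all genes, and 4 of them were above the 96th percentile: Angptl4 at 99.5, Pdk4 at 98.4, Ucp3 at 97.8 and Acot1 at 96.7. Pearson's r between pairs of the 9 genes was taken on deviations from the group means over 34 arrays, with a two-sided permutation test within groups and adjustment over the 36 pairs. Of the 36 pairs, 14 passed the threshold and all 14 were positive, with a median r over all pairs of 0.38. The share of passing pairs among other genes was not taken. Whether the 9 genes vary together more than other genes was therefore not tested. The closest pair was Acot1 and Acot2 (r = 0.76, Spearman's rho = 0.75, permutation p = 1e-05 for each, the smallest that the permutations can give, adjusted p = 0.00036 for each). It stayed at 0.72 without the 2 arrays farthest from the median of Acot1, and was 0.82 on deviations from group and slide. Ppara, Cpt1b and Plin5 passed in each of their 3 pairs, with r = 0.72 for Cpt1b and Plin5 (rho 0.67, permutation p = 6e-05, adjusted p = 0.00084), 0.67 for Cpt1b and Ppara (rho 0.55, adjusted p = 0.00252) and 0.66 for Plin5 and Ppara (rho 0.53, adjusted p = 0.00099). Plin5 also passed with Acaa2 (r = 0.60), Acot2 (r = 0.57) and Pdk4 (r = 0.47), Acaa2 with Acot2 (r = 0.58), Acot1 (r = 0.57) and Ucp3 (r = 0.44), and Ucp3 with Acot2 (r = 0.67) and Acot1 (r = 0.63), so the passing pairs do not fall into separate sets. Pdk4 varied with Ucp3 (r = 0.62, rho 0.57, permutation p = 0.00129, adjusted p = 0.00387) and with Angptl4 (r = 0.60, rho 0.54, permutation p = 7e-05, adjusted p = 0.00084). Angptl4 passed with no gene of the 9 other than Pdk4 and had r below 0 with 6 of them, the lowest with Cpt1b (-0.37, permutation p = 0.0499, adjusted p = 0.0994). Ppara had r = 0.00 with Acot1 (permutation p = 0.999) and did not pass with Pdk4 (adjusted p = 0.0994), where r = 0.46 became -0.08 without the 2 farthest arrays. Over the 29 arrays that were not low in adipocyte markers, 15 pairs passed, all positive, and Acot1 and Acot2 had r = 0.84.

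**Figure D4:**
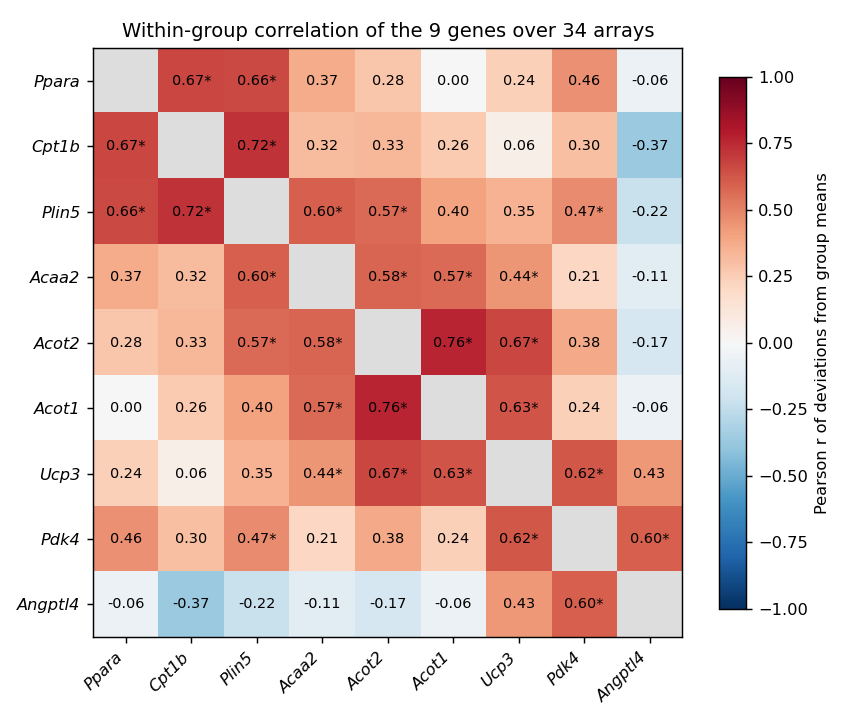
Pearson r of deviations from the group means between the 9 genes over 34 arrays, with blue below 0 and red above 0. An asterisk marks an adjusted permutation p under 0.05, and 14 of 36 pairs carry one.

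The adipocyte marker score separates 5 arrays, at -2 or lower, from the other 29. Those 5 were carbon black day 1 replicate 6, vehicle day 1 replicate 2, vehicle day 3 replicate 4, carbon black day 28 replicate 3 and vehicle day 28 replicate 2. The correlations below are therefore over the 29 arrays alone. Of 27 relations tested (9 genes and 3 scores), 7 passed for Pearson's r. Over all 34 arrays 5 passed: Acot1 and Acot2 with both adipocyte scores, and Acaa2 with the white and general score (r = -0.52, adjusted permutation p = 0.0138). Cpt1b (r = -0.11, adjusted p = 0.764), Plin5 (-0.32, 0.238) and Angptl4 (0.44, 0.0844) did not pass for Pearson's r with that score over 34 arrays. Angptl4 did pass there for Spearman's rho (0.51, adjusted permutation p = 0.0214). The Pearson relations of Cpt1b, Plin5 and Angptl4 below thus depend on leaving out the 5 arrays. Acot2 fell with the score (r = -0.77, rho -0.71, permutation p = 2e-05, adjusted p = 0.00054), as did Acot1 (r = -0.70, rho -0.66, permutation p = 0.00019, adjusted p = 0.00256). Without the 2 arrays farthest from the median score, r was -0.74 for Acot2 and -0.65 for Acot1. Plin5 (r = -0.53, rho -0.50, adjusted p = 0.0457) and Cpt1b (r = -0.53, rho -0.50, adjusted p = 0.0401) passed for Pearson's r, with adjusted p = 0.0602 and 0.0596 for rho. The brown adipocyte score passed with Acot2 (r = -0.54, rho -0.53, adjusted p = 0.0401, and 0.0596 for rho) and with Acot1 (r = -0.48, rho -0.43, adjusted p = 0.0493, and 0.11 for rho). Angptl4, which adipocytes express strongly, went the other way with the white and general score (r = 0.50, rho 0.49, permutation p = 0.0125, adjusted p = 0.0493, and 0.0602 for rho). On the 5 arrays low in adipocyte markers Acot2 had a median of 1.78 and Acot1 of 1.35, against medians of 0.92 and 0.36 on the other 29, and Angptl4 had a median of -0.67 against 0.39. Both treatments hold such arrays: 2 of 16 carbon black and 3 of 18 vehicle arrays. The adipocyte score averaged -0.76 in carbon black and -0.50 in vehicle hearts at day 1, 0.20 in carbon black and -0.51 in vehicle hearts at day 3, and -0.29 in carbon black and -0.66 in vehicle hearts at day 28, and ranges overlapped at each day. Without the 5 arrays the 9 genes again had fitted differences above 0 over all days, with a median of 0.42, and none was called.

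**Figure D5:**
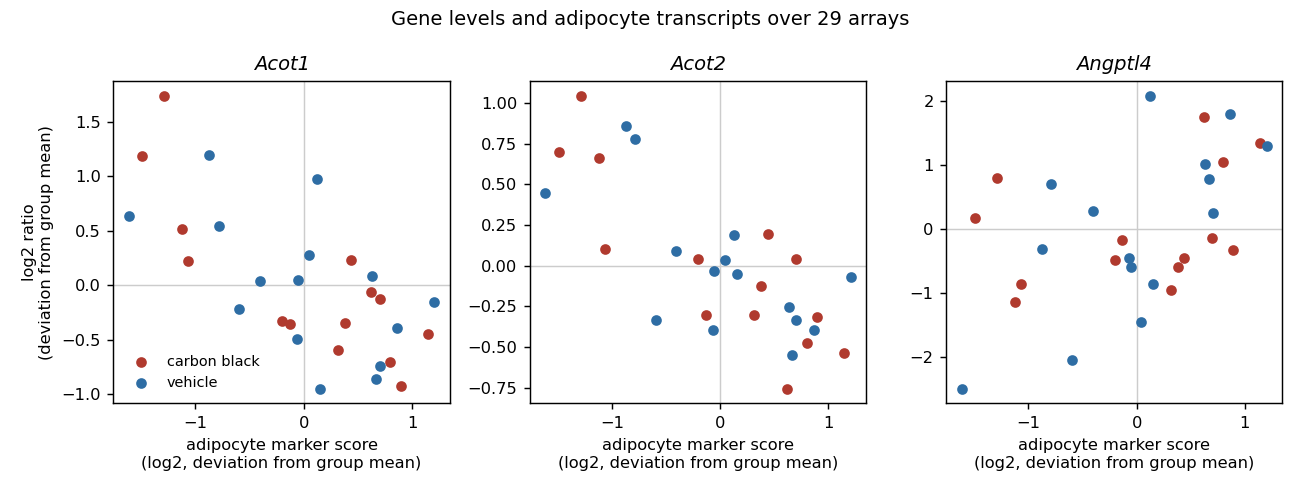
Log2 ratio of Acot1, Acot2 and Angptl4 against the white and general adipocyte marker score, both as deviations from the group mean over 29 arrays, with carbon black in red and vehicle in blue. Acot1 (r = -0.70) and Acot2 (r = -0.77) fall and Angptl4 (r = 0.50) rises with the score.

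For each of the 9 genes, the 3 named genes most like it were found by Pearson's r of deviations from the group means over the 34 arrays, out of 12263 genes searched. These are descriptions, since all points come from the same arrays. Acaa2 was closest to Sucla2 (0.93), Acadm (0.89) and Hadha (0.88). Cpt1b was closest to Cav3 (0.86), Fn3k (0.84) and Itgb1bp2 (0.81), and Plin5 to Fblim1 (0.86), Tmem25 (0.83) and Sobp (0.83). Ppara was closest to Coq8a (0.85), Cidea (0.83) and Slc2a4 (0.83). Acot2 was closest to Tacc2 (0.89), Cnksr3 (0.86) and Egln1 (0.85), and Acot1 to Lgals4 (0.83), Eci2 (0.81) and Ptp4a3 (0.79). Pdk4 was closest to Rnf113a2 (0.83), Cradd (0.83) and Fas (0.80), and Ucp3 to Hsdl2 (0.77), Btnl9 (0.74) and Slc25a22 (0.72). Angptl4 had the weakest likeness, with Cpt1a (0.69), the liver form of carnitine palmitoyltransferase 1, Rpl39 (0.68) and Ncoa4 (0.67).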

How the data were processed

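Heart RNA of 34 mice was measured on two-colour Agilent arrays, 1 sample per array with the sample in Cy5 and 200 ng of RNA labelled, per the labels' protocols. The deposited scanner files give a foreground and background intensity, a processed signal and quality flags for each spot, made with Agilent Feature Extraction 10.1.1.1, per the file headers. The authors also deposited a table of log2 ratios whose processing is not given in the sources used here. Its column medians lay between -0.0554 and -0.0336, and it followed loess-normalised ratios without background correction (r 0.996 to 0.998 on each array, slope 0.988 to 0.996), in the same direction, so it served as an alternative.

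Here, spot medians went through limma's normexp correction, with an offset of 50, before a loess fit on each array. The versions were limma 3.58.1, statmod 1.5.0 and R 4.3.3. Of 43379 spots that are not controls, flagged outliers were left out, between 0.256% and 0.618% per array, and spots of a probe were averaged. A probe was kept where 0.5 or more of a group's arrays flagged it as well above background and no more than 3 values were missing, and each gene was read from its brightest probe, which gave 19793 genes, 12343 of them with a symbol. Symbols came from a RefSeq table of GRCm38.p6, used for names only; the array header gives mm8. The model had 1 mean per group (28 residual degrees of freedom), eBayes, and Benjamini-Hochberg adjustment over all genes at 0.05; the 3 day effects were averaged for the all-days value. Correlations used 100000 permutations within groups. The scripts were tested on simulated data.

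Slide (14) and scan day (7) were taken as batches. The 9 genes and the gene lists were chosen with earlier results of these data known. The text names all 9 genes, of each list the called genes and otherwise up to 3 of smallest unadjusted p over all days, and for each of the 9 the 3 genes most like it. An item of the pathway lists is not reported here and is left out of their counts. For vehicle day differences the text gives the largest values only.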

Additional observations from a re-analysis of the deposited data

Results flagged for a closer look

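Within each group, the highest and lowest array of each of the 9 genes was checked for a gap to its neighbour that is large against the group's range (Dixon's ratio at 95%). Of 54 groups checked, 4 held such an array, where about 1 in 20 is expected by chance, which is 2.7 groups. Ppara was 1.05 in carbon black day 1 replicate 6, with the next array at 2.59 (ratio 0.667). Cpt1b was 3.44 in carbon black day 3 replicate 4, with the next at 4.40 and the highest at 4.53 (ratio 0.881). Plin5 was 4.91 in carbon black day 28 replicate 1, with the next at 5.76 (ratio 0.714). Pdk4 was 7.03 in vehicle day 3 replicate 2, with the next at 5.93 (ratio 0.675). Of these arrays, carbon black day 1 replicate 6 is also low in atrial and adipocyte transcripts and carries the lowest Pdk4, Plin5 and Ucp3 of its group.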

How the results depend on the processing

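No paired analysis was possible because the labels give the groups no shared replicate numbers, so pairs of animals are not defined. Carbon black and vehicle arrays of a day that share a slide were compared as a batch instead, within 10 slides and with slide as a block. In all 10 slides the vehicle array was at position 1 and the carbon black array at position 4. The comparisons within slides do not separate treatment from position. Over all days, 386 genes were called, and this count came to 1512 with the authors' deposited values, 1487 without background correction, 1340 with median centring, 1046 with the adipocyte score as a covariate, 1022 without arrays low in atrial transcripts, 662 without arrays low in fat, 153 with no filter on dim probes, 140 with the mean over all probes, and 0 with Agilent's processed signals, with slide, scan day or position on the slide as a fixed block, or without arrays high in liver transcripts. Leaving out 1 array gave 0 to 947, and 0 without carbon black day 3 replicate 3 or 5, carbon black day 28 replicate 3 or vehicle day 28 replicate 4. Of the 9 genes, 2 were called with median centring and 1 with the adipocyte covariate. At day 1, 1 gene was called with scan day as a block and 1 without arrays high in liver transcripts, and leaving out 1 array gave 0 to 3 at day 1 and 0 to 1 at day 3. For vehicle day 28 against day 1, 1 gene was called with only those groups in the fit. Leaving out arrays by their marker scores was chosen after seeing the data.

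No fitted difference of the 9 genes that changed sign passed the threshold on either side, and the cause was not tested. At day 1, Plin5 was -0.05 with slide as a block. Ucp3 at day 1 was 0.32 without background correction, 0.93 with processed signals, 0.30 with the authors' values and 0.53 without arrays low in atrial transcripts or in fat. Ppara at day 1 was 0.26 without background correction, 0.25 with the authors' values, 0.18 with processed signals, 0.07 with median centring, 0.11 without arrays low in atrial transcripts or in fat and 0.09 without arrays high in liver transcripts. At day 3, Cpt1b was -0.02 with the mean over probes, -0.01 with position as a block and -0.25 without arrays high in liver transcripts, where Plin5 was -0.01 and Acaa2 0.09. Acaa2 was 0.41 with median centring and 0.02 with the adipocyte covariate, and with position as a block Ucp3 was -0.08 and Ppara -0.15. At day 28, Acot2 was 0.04 with median centring, 0.01 with scan day as a block, 0.08 with the adipocyte covariate and 0.12 without arrays low in atrial transcripts, and Ucp3 was -0.24 with processed signals. Over all days Ucp3 was -0.22 and Ppara -0.21 with position as a block. For vehicle day 28 against day 3, Ucp3 was 0.52 with processed signals. Leaving out 1 array gave -0.21 to 0.81 for Pdk4, -0.07 to 0.32 for Plin5, -0.42 to 0.27 for Ucp3 and -0.36 to 0.10 for Ppara at day 1, -0.02 to 0.30 for Cpt1b and -0.15 to 0.03 for Acaa2 at day 3, and -0.21 to 0.22 for Acot2 at day 28. Of 2709 single values recomputed, 2652 were counted as unchanged. For fitted differences this means the same sign and the same side of the threshold, and for the test between days the same side. For correlations a change of sign was counted only where a value passed the threshold. Correlations on deviations from group and slide were checked for sign only.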
